A study of Mus musculus with 2 samples.

Results

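Integrins and leukocyte adhesion receptors were described as a list of 37 genes, compared between M/E cells that carried an active form of the transcription factor MEF2C and M/E cells that carried an empty vector. The list held 23 integrin chains, P-selectin and its ligand, CD44, CD34, 8 adhesion molecules of the immunoglobulin superfamily, CD47 and fibronectin. Members were taken by the gene name printed in the array files, which found 35 of the 37 among 27912 gene names, with 82 probes. Selplg and Esam were found under older names (Selpl and Esam1) and are described apart from the 35.

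M/E cells derive from mouse bone marrow and were immortalised with MLL/ENL, a fusion oncogene of acute leukaemia, and both cultures had the genotype Mef2c del/-, so neither had a functional Mef2c of its own, per the labels. The MEF2C-ASR culture was transduced with MYs-pMef2cASR, a vector for Mef2c with a mutation in its histone deacetylase binding that makes it constitutively active, and the control culture with the empty vector MYs-iPAC, and both were selected with puromycin. Both grew in medium with 10% fetal calf serum, 100 ng/ml SCF and 10 ng/ml of each of GM-CSF, IL6 and IL3, and RNA taken 6, 24 and 48 h after seeding was pooled into 1 sample per culture. Each pool was hybridised in 1 colour (Cy3) to 1 Agilent whole mouse genome array. With 1 array per group there was no replicate check, no test was run, and "higher" and "lower" describe these 2 arrays. A culture rescued with wild-type Mef2c was not analysed here.

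Integrins are surface receptors made of an alpha and a beta chain, which bind matrix proteins or counter-receptors on other cells and link them to the actin skeleton. Leukocytes use the beta 2 family (CD11/CD18) to adhere firmly and to take up particles, the beta 1 and alpha v chains to bind fibronectin and other matrix proteins, and selectins with their mucin-like ligands to roll along the vessel wall. On myeloid cells, CD11b marks maturing granulocytes and monocytes, and CD11c marks dendritic cells and some macrophages.

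Processed signals were scaled to each array's 75th percentile of signal, which was 1240 on the MEF2C-ASR array and 1272 on the control array, and differences are given on the log2 scale as MEF2C-ASR minus control. The 2 arrays shared a slide and a scan. On the MEF2C-ASR array 67.5% of 43379 spots were well above background, against 60.1% on the control array, and the lowest signal that counted as such was 19.98 on the MEF2C-ASR array and 38.3 on the control array. Spots that were not had median signals of 4.55 on the MEF2C-ASR array and 8.59 on the control array, so a probe at the floor of both arrays reads as lower with MEF2C-ASR and no difference was taken from it. Probes printed 10 times gave the spotting error, an SD of 0.15 for the difference of a probe with 1 spot, 0.28 below a signal of 200 and 0.036 above 2000 (n = 135, 37 and 61 probes). Differences between cultures, between RNA pools and between labelling reactions are not part of this error. At bright probes this error is small, so the spots of a probe can lie without overlap between the arrays at a small difference. The share of all repeatedly printed probes whose spots did so is not given here. Mef2c itself had a signal of 1969 on the MEF2C-ASR array and 795 on the control array at 1 probe, a difference of 1.34, and its other probe was dim (not well above background) on both arrays. The labels do not say whether these probes lie in the deleted part or detect the vector's transcript.

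The sequences around the transcription starts of the genes past 1.5-fold upward are given here where the reference table had them, since these genes carry the largest differences among those measured on both arrays. They are windows of 300 bases that reach from before to just after the start, from RefSeq, assembly GRCm38.p6, 5' to 3' on the gene's strand, with capitals on matches to GAGGAA (a core of PU.1 sites) or TGTGGT (a core of RUNX sites) on either strand. Itgam is at chr7:128062390-128062689 and Itgax at chr7:128129300-128129599, both on the plus strand, and F11r is at chr1:171437311-171437610 on the plus strand.

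Itgam: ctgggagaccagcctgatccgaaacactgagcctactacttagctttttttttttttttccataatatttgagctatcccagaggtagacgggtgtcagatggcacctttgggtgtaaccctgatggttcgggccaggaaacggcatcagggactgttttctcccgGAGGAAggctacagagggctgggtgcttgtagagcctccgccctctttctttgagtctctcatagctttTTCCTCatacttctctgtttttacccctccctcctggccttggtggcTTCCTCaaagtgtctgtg
Itgax: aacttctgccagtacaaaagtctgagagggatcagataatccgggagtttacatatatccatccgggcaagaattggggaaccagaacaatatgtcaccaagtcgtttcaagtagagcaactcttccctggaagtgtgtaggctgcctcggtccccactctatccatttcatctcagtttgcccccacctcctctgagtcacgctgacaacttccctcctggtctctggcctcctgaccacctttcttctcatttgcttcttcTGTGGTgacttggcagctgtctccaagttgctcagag
F11r: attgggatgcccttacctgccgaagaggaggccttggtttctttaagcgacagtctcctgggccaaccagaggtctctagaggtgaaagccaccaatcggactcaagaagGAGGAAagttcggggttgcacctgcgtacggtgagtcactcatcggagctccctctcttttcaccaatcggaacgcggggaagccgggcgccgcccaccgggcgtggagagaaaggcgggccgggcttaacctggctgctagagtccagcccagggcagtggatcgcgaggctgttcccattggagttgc

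The Itgam window held GAGGAA 3 times, with the first base of the match at -84, -15 and 33 from the start, and the F11r window held it once, at -140. The Itgax window held TGTGGT once, at 14. Of the 37 genes, 22 had a promoter in the table, with 25 windows in all. GAGGAA was in 10 of these 25 (40.0%), against 28.3% of all 32851 windows, and TGTGGT in 3 (12.0%), against 16.8%. The MEF2 motif, searched on both strands, was in 0 of the 25 windows and in 3.19% of all windows. Matches of different motifs were allowed to overlap. A match is a description of the letters and not of binding.

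Of the 35 genes, 28 had at least 1 probe well above background on both arrays. No measured gene was 2-fold apart in either direction, beside shares of all 16696 measured genes of 1.75% at least 2-fold higher and 1.92% at least 2-fold lower. Itgam, Itgax, Itgb3 and F11r were at least 1.5-fold higher (4 of 28, beside 4.47% of all genes), and 0 of 28 were at least 1.5-fold lower (beside 5.04%). The differences ran between -0.37 (Itga2b) and 0.90 (Itgax) with a median of 0.16, beside a median of -0.03 over all measured genes. Of the 28 genes, 20 lay above 0 (71.4%, beside 44.9% of all measured genes), and 24 lay within 1.5-fold (85.7%, beside 90.4%). The position of 0 depends on the scaling: with the spike-in spots as the standard the median of all genes was -0.16 and that of the adhesion genes 0.03. Across 7 scalings and background corrections, 14 of the 28 genes stayed above 0 and 7 below. The share of all measured genes that kept their sign is not given here, so these counts are no trait of the adhesion genes.

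**Figure D1:**
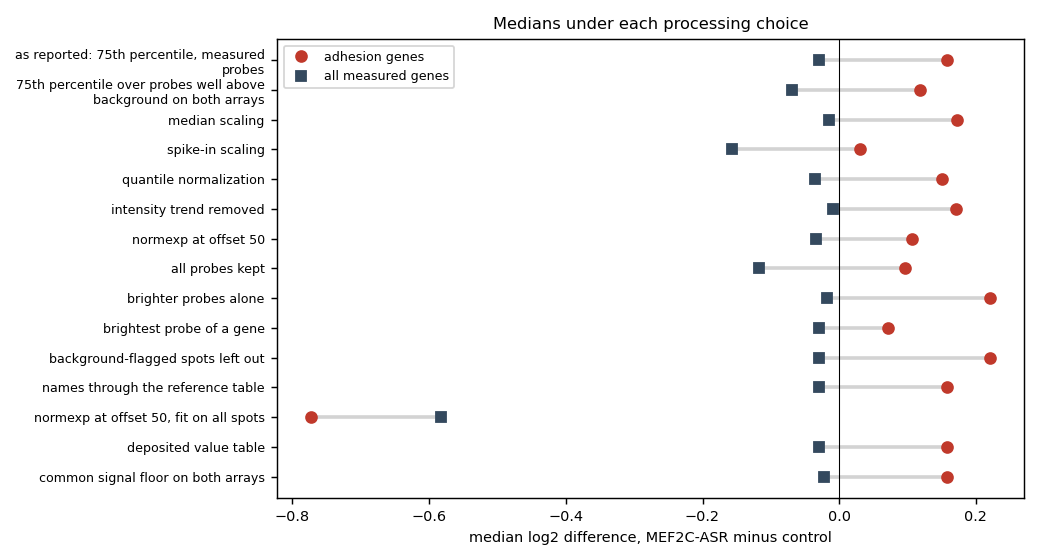
Median log2 difference (MEF2C-ASR minus control) of the measured adhesion genes (circles) and of all measured genes (squares) under each processing choice, with 0 as a line. The adhesion genes lie to the right of all genes in every choice but normexp fitted on all spots, in which both medians are far below 0.

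**Figure D2:**
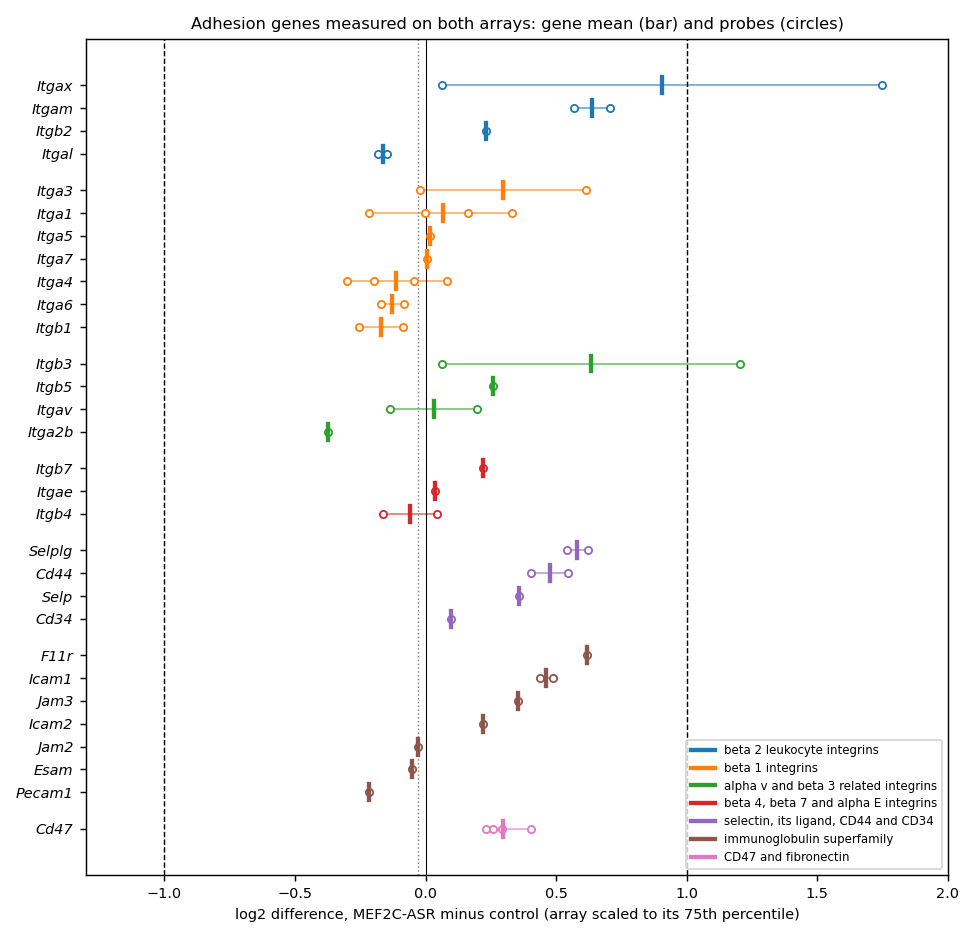
Log2 difference (MEF2C-ASR minus control) of the 30 adhesion genes measured on both arrays, Selplg and Esam included, grouped by role. Bars are gene means and circles are single probes; dashed lines mark 2-fold and the dotted line is the median of all measured genes. Every gene mean lies inside the 2-fold lines, and 1 probe each of Itgax and Itgb3 lies beyond 1.

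Among gene means measured on both arrays, those of the beta 2 integrins Itgax (0.90) and Itgam (0.64) were the highest, with Itgb3 (0.63) next to Itgam. Itgam encodes CD11b, the alpha chain of the complement receptor Mac-1. Its probes had signals of 3219 and 9832 on the MEF2C-ASR array, against 2228 and 6171 on the control array. Both were higher with MEF2C-ASR, with differences of 0.57 and 0.71 and a gene mean of 1.56-fold, well beyond the spotting error at these signals. Itgax encodes CD11c, the alpha chain of the complement receptor that marks dendritic cells and some macrophages. One probe, from transcript NM_021334, had a signal of 375 on the MEF2C-ASR array and 115 on the control array, a difference of 1.75. The other, from the cDNA AK089167, had 77.4 on the MEF2C-ASR array and 76.1 on the control array, a difference of 0.06. The gene mean of 0.90 (1.87-fold) therefore lay between a probe 3.35-fold higher and a probe that differed by less than the spotting error, and with the brightest probe alone Itgax was past 2-fold. The file places the starts of these probes 16.7 kb apart on chromosome 7 (124247096 and 124230396), in a genome build that is not stated.

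The other members of the family differed less. Itgb2 encodes CD18, the beta chain that Itgam, Itgax and Itgal products share, and had a signal of 29130 on the MEF2C-ASR array and 25469 on the control array, a difference of 0.23. Itgal encodes CD11a, the alpha chain of LFA-1. Its probes had signals of 1042 and 2537 on the MEF2C-ASR array and 1183 and 2951 on the control array, lower by small amounts (-0.15 and -0.18). The chains of this family thus did not differ alike: CD11b and CD11c read higher, CD18 slightly higher and CD11a slightly lower.

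Itgb3 encodes the beta chain of the vitronectin receptor and of the platelet fibrinogen receptor, and was the other integrin whose probes were far apart. The probe from AK135584 (chromosome 11, 104779399) had a signal of 996 on the MEF2C-ASR array and 444 on the control array, a difference of 1.20. The probe from NM_016780, whose start lies 3182 bases away at 104776217, had 758 on the MEF2C-ASR array and 744 on the control array, a difference of 0.06. The gene mean was 0.63 (1.55-fold), and with the probe of higher signal over both arrays alone it was 0.06. Among the 14 adhesion genes with more than 1 measured probe, Itgax and Itgb3 were the 2 whose probes differed by over 1, beside 2.52% of 5434 such genes on the array. The probes of 5 of the 14 differed in sign, beside 32.4% of those genes. Itgax and Itgb3 provided the 2 member probes that were at least 2-fold higher, of 48 measured, beside 1.6% of all 24379 measured probes.

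**Figure D3:**
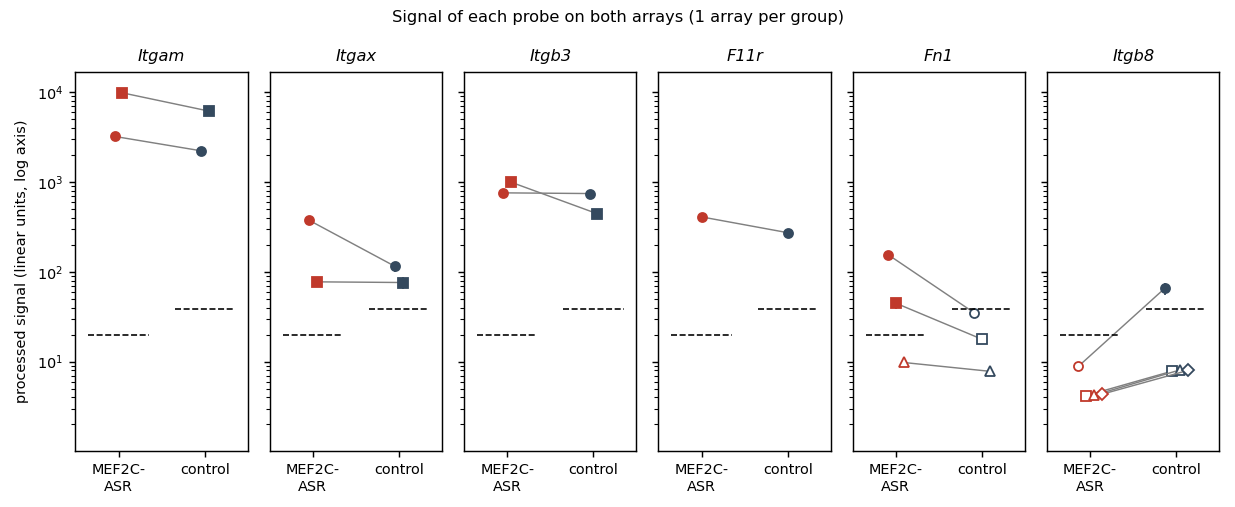
Processed signal on a log axis of each probe of Itgam, Itgax, Itgb3, F11r, Fn1 and Itgb8, MEF2C-ASR at the left and control at the right of each panel, with lines joining the values of 1 probe. Error bars are the scanner software's error, filled symbols are well above background, and dashes mark the lowest such signal of each array. The probes of Itgam fall together, while those of Itgax and Itgb3 part; levels of different probes are not comparable.

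Fibronectin and the beta 8 chain were each seen on 1 array alone, and for them a bound replaces a difference. Fn1 encodes fibronectin, the matrix ligand of alpha 4 beta 1, alpha 5 beta 1 and alpha v integrins. Its probe at chromosome 1, 71832689, was printed 10 times, with spots between 138 and 173 (median 158) on the MEF2C-ASR array and between 28.9 and 41.8 (median 34.5) on the control array. The spots did not overlap between the arrays, and the probe was not well above background on the control array, so Fn1 was at least 4.15-fold higher with MEF2C-ASR. A bound of at least 2-fold was reached by 3.8% of the 2236 genes seen on the MEF2C-ASR array alone. A second Fn1 probe had 44.8 on the MEF2C-ASR array and 17.8 on the control array, where it was not well above background, and the last was dim on both arrays.

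Itgb8 encodes the chain that pairs with alpha v to release active TGF-beta from its latent form. One of its 4 probes (chromosome 12, 116974578) had a signal of 8.89 on the MEF2C-ASR array, not well above background, and 65.4 on the control array, at least 3.19-fold lower with MEF2C-ASR. The other probes were dim on both arrays. A bound of at least 2-fold was reached by 97.1% of the 171 genes seen on the control array alone, so such a bound is usual there. After a model-based background correction (normexp) the Itgb8 bound was -0.74 on the log2 scale, no longer 2-fold, and that of Fn1 was 1.102, against 2.05 without this correction.

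The beta 1 integrins, which bind collagen, laminin and fibronectin, lay close to 0. Itgb1, the chain they share, was printed 10 times in 1 probe, with spots between 1924 and 2089 (median 1975) on the MEF2C-ASR array and between 2352 and 2565 (median 2410) on the control array. Its spots did not overlap and were lower with MEF2C-ASR, a difference of -0.26, and the second measured probe was at -0.08. The alpha chains Itga4 (-0.11), Itga6 (-0.13), Itga5 (0.02), Itga7 (0.00) and Itga1 (0.07) had gene means between -0.13 and 0.07. Itga3, a laminin receptor chain, had a mean of 0.30 from probes at -0.02 and 0.61. Itga4 encodes the alpha chain of VLA-4, which holds progenitors to VCAM-1 and fibronectin in the marrow, and its 4 measured probes ran between -0.30 and 0.08. Itga8, a chain for matrix ligands such as nephronectin, was well above background on the MEF2C-ASR array alone at 1 probe (29.9 against 19.3 on the control array) and allowed no bound. Itga2 and Itga9 were dim on both arrays.

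Of the alpha v and beta 3 related chains, Itgav had a mean of 0.03 from probes at -0.14 and 0.20, and Itgb5, whose product binds vitronectin with alpha v, was at 0.26 (18771 on the MEF2C-ASR array, 16083 on the control array). Itga2b encodes the platelet chain CD41, also found on early progenitors. It had the lowest value among the genes measured on both arrays, with a signal of 38.7 on the MEF2C-ASR array and 51.3 on the control array (-0.37), at a level where the spotting error alone is 0.28. Itgb6, an epithelial chain, was dim on both arrays. The lymphocyte and epithelial chains Itgb7 (0.22), Itgae (0.04) and Itgb4 (-0.06) were close to 0.

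P-selectin, its ligand, CD44 and CD34 all had means above 0. Selplg, which encodes PSGL-1, the ligand that carries leukocytes along selectins, had probe signals of 26533 and 7359 on the MEF2C-ASR array and 17686 and 5188 on the control array. Both probes were higher, with differences of 0.62 and 0.54 and a mean of 0.58, just under 1.5-fold. Cd44 encodes the hyaluronan receptor, and a probe with 9 usable spots ran between 5182 and 5582 (median 5309) on the MEF2C-ASR array and between 3531 and 3915 (median 3789) on the control array. These spots did not overlap, their difference was 0.54, and a second measured probe gave 0.41. Selp, the selectin of platelets and endothelium, had spots between 101 and 219 (median 162) on the MEF2C-ASR array and between 78.0 and 161 (median 149) on the control array. Its spots overlapped and their differences had an SD of 0.56, larger than the mean difference of 0.36. A second Selp probe was well above background on the control array alone (20.03 on the MEF2C-ASR array, 49.1 on the control array). Cd34, the sialomucin of stem and progenitor cells, was at 0.10 (232 on the MEF2C-ASR array, 222 on the control array).

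**Figure D4:**
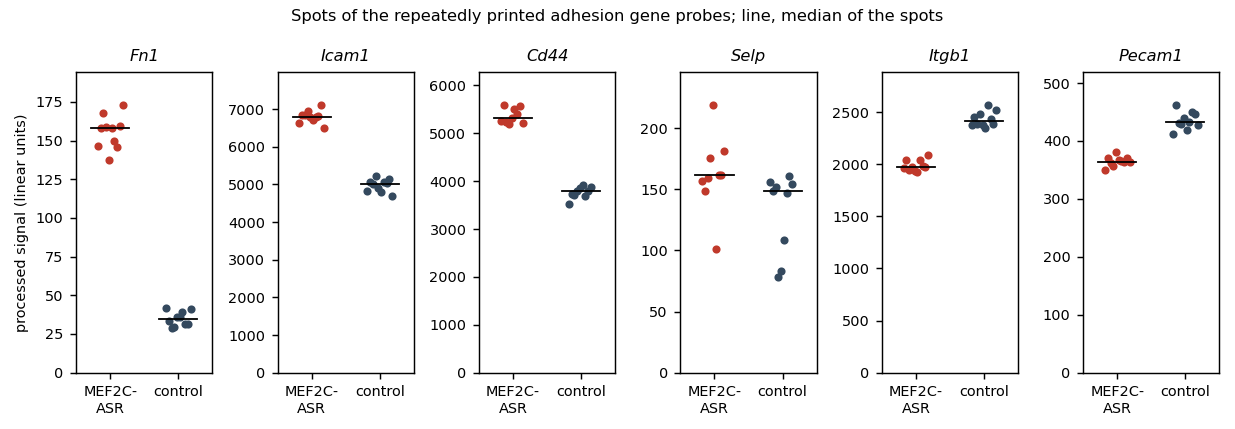
Processed signal of each spot of the 6 adhesion gene probes printed 10 times (9 usable spots for Cd44 and Selp), MEF2C-ASR at the left and control at the right, with the axis from 0 and a line at the median. The spots of Fn1, Icam1 and Cd44 lie wholly higher and those of Itgb1 and Pecam1 wholly lower on the MEF2C-ASR array, while those of Selp overlap. The spots are repeats on 1 array, not of the cultures, and the share of all repeatedly printed probes without overlap is not given.

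Among the immunoglobulin superfamily members, F11r and Icam1 had the highest values. F11r encodes the junctional adhesion molecule JAM-A, a ligand of LFA-1, and had 409 on the MEF2C-ASR array and 273 on the control array at its single probe, a difference of 0.62 (1.54-fold). Icam1 encodes the main ligand of LFA-1 and Mac-1. Its 10 spots ran between 6508 and 7102 (median 6802) on the MEF2C-ASR array and between 4698 and 5232 (median 5022) on the control array, without overlap, and its 2 probes gave 0.49 and 0.44. Icam2, a second ligand of LFA-1, was at 0.22, and Jam3, which binds Mac-1, at 0.35. Pecam1 (CD31) had spots between 350 and 382 (median 364) on the MEF2C-ASR array and between 412 and 461 (median 432) on the control array, a difference of -0.22 with no overlap. Jam2 and Esam, found mostly on endothelium, were at -0.03 and -0.05. Vcam1, the ligand of VLA-4, was well above background on the MEF2C-ASR array alone (28.6, against 31.8 on the control array) and allowed no bound. Cd47, the signal against uptake that also associates with integrins, was higher at all 4 probes, by 0.23 to 0.40. With the spike-in scaling the differences of Itgam, Itgb3 and F11r were 0.51, 0.50 and 0.49, under 1.5-fold, and that of Itgax was 0.78.

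The other genes of integrin function were read from 6 lists of 89 genes in all, none of them members, of which 71 were measured. Of these 4 were at least 2-fold higher and 2 at least 2-fold lower, beside 1.75% and 1.92% of all measured genes, and their median was 0.13, beside -0.03. The counts of the single lists are to be read against the same shares. The list of integrin activation and actin linkage, 22 of 25 genes measured, had a median of 0.17, with 0 genes at least 2-fold higher and 1 lower. The gene that was lower was Parvb, which links integrins to actin, read from the 1 measured of its 2 probes. That probe had 51.9 on the MEF2C-ASR array and 163 on the control array (-1.61, and -0.93 after normexp). Fermt1, a kindlin that activates integrins mainly in epithelia, was seen on the control array alone (6.98 on the MEF2C-ASR array, 71.8 on the control array), at least 3.51-fold lower. As for Itgb8, 97.1% of the genes seen on that array alone reached a bound of 2-fold, and the Fermt1 bound after normexp is not given here. Among the activators found in blood cells, Fermt3 was at -0.09, Tln1 at 0.03, Rassf5 at 0.20, Rap1a and Rap1b at 0.26 each, and Apbb1ip (RIAM) at 0.50, the highest of the measured genes of the list.

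The list of signalling below integrins, 18 of 19 genes measured, had a median of 0.19, 2 genes at least 2-fold higher and 0 lower. Fgr, a Src family kinase of myeloid cells that acts below beta 2 integrins, had 465 on the MEF2C-ASR array and 177 on the control array (1.43). Lyn, another such kinase, was at 0.02 and Syk at 0.39.

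The list of matrix and soluble ligands, 10 of 16 genes measured, had a median of 0.10, with 2 genes at least 2-fold higher and 1 lower. Spp1 encodes osteopontin, a ligand of alpha v and alpha 4 integrins, and had 10121 on the MEF2C-ASR array and 2992 on the control array, 3.47-fold higher. Thbs1 encodes thrombospondin, a ligand of CD47 and alpha v beta 3, and was 2.02-fold higher over 3 probes, but 0.88 on the log2 scale with spike-in scaling. Fgb, a fibrinogen chain, had 22.6 on the MEF2C-ASR array and 64.2 on the control array (-1.47), close to the floor, and was not 2-fold apart after normexp (-0.45).

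The remaining lists had no gene 2-fold apart. Other leukocyte adhesion molecules, 16 of 20 measured, had a median of 0.02, with Emb (embigin) at 0.48. The partners of beta 8 and alpha v integrins in TGF-beta activation, 7 of 8 on the array and all 7 measured, had a median of 0.15, with Tgfb3 at -0.78 and Tgfbr2 at 0.62. Of the integrin genes outside the members, Itga10 alone was measured (-0.08).

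**Figure D5:**
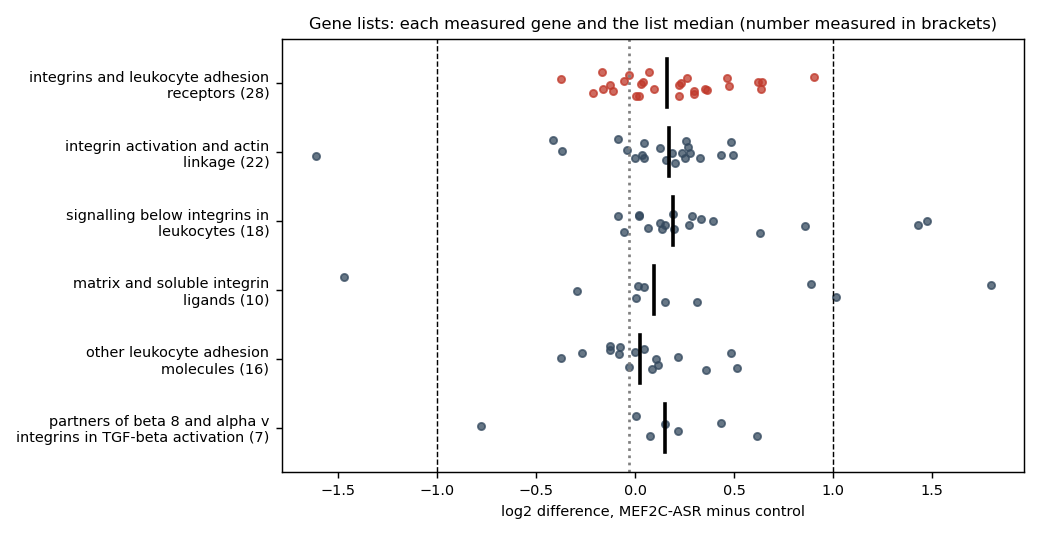
Log2 difference (MEF2C-ASR minus control) of each measured gene, with the list's median as a bar; the 28 adhesion genes are at the top, dashed lines mark 2-fold, and the dotted line is the median of all genes (-0.03). Points are spread up and down within a row for sight alone. Genes beyond 2-fold lie in the lists of activation, signalling and matrix ligands, while all 28 adhesion genes lie inside.

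Markers of myeloid maturation differed in the same direction as Itgam and Itgax, and so did most markers of myeloid progenitors. All 10 myeloid progenitor markers were measured, and 9 of 10 lay above 0, with a median of 0.40. Of these 1 was at least 2-fold higher (Mpo, 2.15-fold, but 0.98 on the log2 scale with spike-in scaling). The summed signal of the 10 was 428737 on the MEF2C-ASR array and 338403 on the control array, of which Mpo made up 143027 and 68289. Of the granulocyte markers 7 of 8 were on the array and all 7 were higher, 4 at least 2-fold (Fpr1 2.79, Mmp8 2.42, Camp 1.44, S100a8 1.27). Their summed signal was 512486 on the MEF2C-ASR array and 354457 on the control array. Of the 8 monocyte or macrophage markers 6 were measured and all 6 were higher, 4 at least 2-fold (Msr1 2.64, Ctss 2.61, Csf1r 1.62, Ccr2 1.42). The summed signal of all 8 was 13487 on the MEF2C-ASR array and 4759 on the control array, with Mrc1 dim on both arrays. The counts of markers, here and below, stand beside 44.9% of all measured genes above 0. Of all measured genes 1.75% were at least 2-fold higher and 1.92% at least 2-fold lower. More cells of a type and more RNA per cell cannot be told apart in such pools, and the part of these markers in the differences of Itgam, Itgax and Fgr was not tested.

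Markers of other cell types were partly measured. Of the 9 megakaryocyte or platelet markers 5 were measured. The summed signal of all 9, dim ones included, was 1214 on the MEF2C-ASR array and 876 on the control array. Pf4 was at least 2-fold higher (1.24) and Gp1ba was dim on both arrays. Of the 8 endothelial markers 2 were measured and neither was above 0 (Egfl7 -0.36, Tek -0.08), and Cdh5, Kdr, Tie1 and Emcn were dim on both arrays. The summed signal of all 8, dim ones included, was 5003 on the MEF2C-ASR array and 6523 on the control array, of which Egfl7 made up 4851 and 6362. Of the 7 stromal markers 3 were measured. The summed signal of all 7, dim ones included, was 221 on the MEF2C-ASR array and 476 on the control array. Of these sums Lum made up 18.4 and 225. Col1a1 was at 0.89, Col1a2 at -0.06 and Pdgfrb at -1.81 (-0.74 in the scaling or background correction that moved it most). Lum, seen on the control array alone, was at least 10.98-fold lower, and Dcn and Pdgfra were dim on both arrays. A bound of at least 2-fold was reached by 97.1% of the genes seen on the control array alone, and the Lum bound after normexp is not given here. The T or NK, B and epithelial lists had 3 of 6, 2 of 5 and 3 of 4 genes measured. The summed signals of all genes of each list, dim ones included, were 1061, 395 and 284 on the MEF2C-ASR array. On the control array they were 1474, 317 and 186. In the T or NK list Cd3e was at 0.77 and Lck at -0.72. Cd79a (1.15) and Cdh1 (1.43) were at least 2-fold higher, but their lowest values over the scalings and background corrections were 0.60 and 0.84. The other measured epithelial markers were Krt8 (-0.44) and Krt18 (-0.01), while Cd3g, Ncr1 and Epcam were dim on both arrays.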

How the data were processed

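Each deposited file holds linear intensity values per spot, written by Agilent Feature Extraction 9.5.1.1 per the file headers, with the background already subtracted and with flags for background, saturation and outliers. The deposited value table equalled these signals on both arrays (column medians 83.2 for MEF2C-ASR and 85.8 for control), so it is linear and not centred. The sources used here do not name the genome build of the probes.

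Values were taken to log2, minus the 75th percentile of the non-control spots of the same array. Control spots and outlier spots (201 on the MEF2C-ASR array, 202 on the control array) were left out, and 0 spots were saturated. Spots of a probe were averaged, and a gene is the mean of its probes well above background on both arrays. A gene was counted as 2-fold apart only where all such probes had 1 sign. A bound sets the brighter level against the dim probe's own level or the lowest level that counted as well above background there, whichever is higher. With 1 array per group no test was possible. Gene names are those in the files; Selplg and Esam were matched through a RefSeq table (GRCm38.p6).

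The members, the lists and the rule for named genes (all members, and in other lists up to 4 genes 2-fold apart or the 2 farthest from 0) were chosen with earlier results of these data known; Fermt3, Tln1, Rassf5, Rap1a, Rap1b, Apbb1ip, Lyn, Syk, Col1a1, Col1a2, Krt8 and Krt18 were named after their values were seen. The values of 3 genes of these lists are not reported here, though all are in the counts, sums and medians. The code was tested on arrays simulated with spotting noise alone, which says nothing of the spread between cultures. Alternatives (14) covered scaling, background, probe choice and naming. Tools were limma 3.58.1 in R 4.3.3 and pandas 2.3.3 in Python 3.11.15.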

Additional observations from a re-analysis of the deposited data

How the results depend on the processing

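The median of the adhesion genes stayed between 0.03 and 0.22 in every alternative but 1, and above the median of all genes in those. The exception was normexp fitted on all spots, as first planned, with a median of -0.77 and 11 adhesion genes at least 2-fold lower. In that fit 5 spots of the control array had a local background more than 200 above their signal, the median of all genes was -0.58 and 6612 genes were at least 2-fold lower, so no result was taken from it. Giving spots with uneven background the array's median background, a choice made after seeing the data, put the adhesion median at 0.11 and that of all genes at -0.03.

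No adhesion gene was counted as 2-fold apart except in 3 further alternatives. With all probes kept 1 of 35 was higher (Fn1), beside 804 of all 27912 genes, with signals at the floor of both arrays included. In that setting 2 of 35 were lower (Itgb6 and Itgb8), beside 992 of all 27912. With the brighter probes alone 1 of 23 was higher (Itgax), beside 204 of all 12638 genes. With the brightest probe of each gene 1 of 28 was higher (Itgax), beside 302 of all 16696. Taken singly, the probes of Itgax gave 1.75 and 0.06 and those of Itgb3 1.20 and 0.06, a split made after seeing the data. With all probes kept Selp was at -0.45, Jam3 at -0.82 and Itgb4 at 0.55. No paired analysis was possible because each group has 1 array. Depth of signal limits Itga2, Itga9 and Itgb6, which were dim on both arrays, and Itgb8, Fn1, Itga8 and Vcam1, seen on 1 array alone. It also limits Itga2b, which was measured on both arrays at a low signal. With 2 arrays in all, precision is limited by their number.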
